A study of Mus musculus with 8 samples.

Results

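The genes described here are 10 markers of the trophectoderm and of simple epithelia, measured by RNA sequencing in mouse embryonic stem cells. They were listed by symbol: the keratins Krt7, Krt8, Krt18 and Krt19, the transcription factors Cdx2, Elf5, Gata3 and Tfap2c, the tight junction protein gene Cldn6 and the desmosome gene Dsp. All 10 were found among the 57010 genes of the deposited count table. The study used 8 libraries in 4 groups of 2. HSVTK cells with ganciclovir (GANC), HSVTK cells with the solvent DMSO, Control cells with GANC and Control cells with DMSO made up the groups. HSVTK cells make a herpes virus thymidine kinase from a reporter of the 2C-like state, a rare state that resembles the 2-cell embryo, and cells with this enzyme turn ganciclovir into a poison. Dose, duration, any construct in Control cells and the clonality of the HSVTK line are not stated in the labels. Separate cultures for the libraries of 1 group are not stated either, so the p-values rest on a spread between libraries that could be purely technical.

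The trophectoderm is the first epithelium of the mammalian embryo and the source of the placenta. Its fate is set by a network in which Cdx2, Eomes, Gata3, Tfap2c and Elf5 act together, while Pou5f1 and its partners hold embryonic stem cells in the pluripotent state. Keratins form filaments as obligate pairs of a type II protein (Krt7 or Krt8) and a type I protein (Krt18 or Krt19). Desmosomes anchor these filaments at the cell border through desmoplakin (Dsp), and claudins such as Cldn6 seal the space between cells in tight junctions. Embryonic stem cells are themselves joined by E-cadherin and carry part of this epithelial set, and Tfap2c also works in naive pluripotency and in the germ line.

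The promoters of 4 members with a called change are shown, an adjacent keratin pair and both junction genes. They are the 250 bases before the transcription start in RefSeq's annotation of GRCm38.p6, written 5' to 3' on the gene's strand: chr15:102004343-102004592 on the minus strand for Krt8, and on the plus strand chr15:102027966-102028215 for Krt18, chr17:23679115-23679364 for Cldn6 and chr13:38151044-38151293 for Dsp. Capitals mark matches, on either strand, to core motifs of 6 factor families: GCCNNNGGC of TFAP2 factors, AGATAA of GATA factors, TTTATG of CDX factors, AGGAAG of ETS factors, GGGCGG of SP and KLF factors, and CATTCC of TEAD factors.
Krt8: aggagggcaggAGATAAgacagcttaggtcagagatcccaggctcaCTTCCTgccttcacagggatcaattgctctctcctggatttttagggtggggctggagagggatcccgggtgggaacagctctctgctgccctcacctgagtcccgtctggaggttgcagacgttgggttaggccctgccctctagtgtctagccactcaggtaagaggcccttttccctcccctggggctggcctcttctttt
Krt18: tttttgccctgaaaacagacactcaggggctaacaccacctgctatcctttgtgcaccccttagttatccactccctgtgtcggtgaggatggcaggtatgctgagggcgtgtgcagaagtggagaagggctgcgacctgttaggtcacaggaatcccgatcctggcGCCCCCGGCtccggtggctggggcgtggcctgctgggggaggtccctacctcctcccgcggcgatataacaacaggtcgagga
Cldn6: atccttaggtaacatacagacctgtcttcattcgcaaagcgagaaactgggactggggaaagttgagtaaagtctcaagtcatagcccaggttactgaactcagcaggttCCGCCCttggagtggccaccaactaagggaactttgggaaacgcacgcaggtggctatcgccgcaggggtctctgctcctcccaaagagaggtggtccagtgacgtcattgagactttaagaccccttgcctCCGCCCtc
Dsp: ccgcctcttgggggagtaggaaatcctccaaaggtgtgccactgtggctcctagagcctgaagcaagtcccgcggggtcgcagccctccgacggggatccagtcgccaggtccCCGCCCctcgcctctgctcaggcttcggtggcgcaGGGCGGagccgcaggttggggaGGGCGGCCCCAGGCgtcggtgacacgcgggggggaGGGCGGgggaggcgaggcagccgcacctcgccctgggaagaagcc
Krt8 and Krt18 are neighbours on chromosome 15, and their windows share none of these motifs. Krt8 holds 1 GATA match and 1 ETS match, Krt18 holds 1 TFAP2 match, and Cldn6 holds 2 SP/KLF matches. Dsp holds 4 SP/KLF matches and 1 TFAP2 match, and the TFAP2 match overlaps an SP/KLF match. Of the 10 members, 8 were found in the RefSeq table, and Krt19 and Tfap2c were not used here. Elf5 has 2 windows in that table, so the 8 genes have 9. A TFAP2 match stood in 5 of these 9 windows and in 13.7% of all 32851 windows of the same length, an SP/KLF match in 4 of 9 and in 32.7%, an ETS match in 3 of 9 and in 29.5%. The windows compared were not matched for GC content. It was 55.2 to 72.4% in the 5 windows with a TFAP2 match and 53.6 to 62.8% in the others of the 9. GATA, CDX and TEAD matches stood in 1 of the 9 windows each, and in 3281, 3536 and 4153 of all windows. The CDX match lies in one Elf5 window and the TEAD match in the other. These are matches of letters, and no binding was measured.

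The cells carried the factors of pluripotent stem cells at levels far above those of the 10 genes. Pou5f1 averaged 688 ± 19.3 CPM in HSVTK GANC, 633 ± 8.92 in HSVTK DMSO, 661 ± 49.4 in Control GANC and 600.0 ± 25.0 in Control DMSO (SD, n = 2 each; CPM is the count scaled to a common library size, after TMM scaling). The libraries held 29704460 to 34184475 counts. Zscan4c, a gene of the 2C-like state that the design aims to deplete in HSVTK cells, had 8.53 and 8.88 CPM in the libraries labelled HSVTK GANC, against 4.70 and 3.59 in those labelled HSVTK DMSO, which is higher and not lower. Zscan4c is 1 of several near-identical copies, so its count is uncertain. Groups are therefore called by their labels, and every direction below rests on those labels. The libraries labelled HSVTK GANC also had the highest mitochondrial share of counts (3.56 and 3.45%, against at most 3.17% elsewhere) and the most genes with a count (25146 and 25656, against at most 24772); the part of these in the results was not tested.

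Levels of the members spanned the range from well measured to nearly absent. Counts per library were 580 to 1287 for Tfap2c, 323 to 527 for Cldn6, 154 to 315 for Dsp, 71 to 333 for Krt8, 85 to 202 for Krt18 and 25 to 221 for Krt19. Gata3 had 14 to 30 counts, Cdx2 5 to 24 and Krt7 4 to 19, so only large changes could be seen in these. Elf5 had 0 to 4 counts and was the only member that failed the filter on low counts. In the deposited FPKM values, which divide by gene length and allow genes to be compared, the order in HSVTK DMSO, Control GANC and Control DMSO began with Tfap2c, Cldn6 and Krt18. The means in HSVTK DMSO were 10.05 FPKM for Tfap2c, 9.16 for Cldn6, 4.03 for Krt18, 3.37 for Krt19, 3.35 for Krt8 and 0.985 for Dsp. Krt19 and Krt8 overlapped between libraries there and in both Control groups, so their order is not settled. Gata3, Cdx2, Krt7 and Elf5 lay at or below 0.304 FPKM in every group. In the libraries labelled HSVTK GANC the order was Cldn6 at 7.51 FPKM, Krt8 at 5.17, Tfap2c at 5.10 and Krt18 at 3.88, and Dsp (0.642) overlapped Krt19 (0.640).

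**Figure D1:**
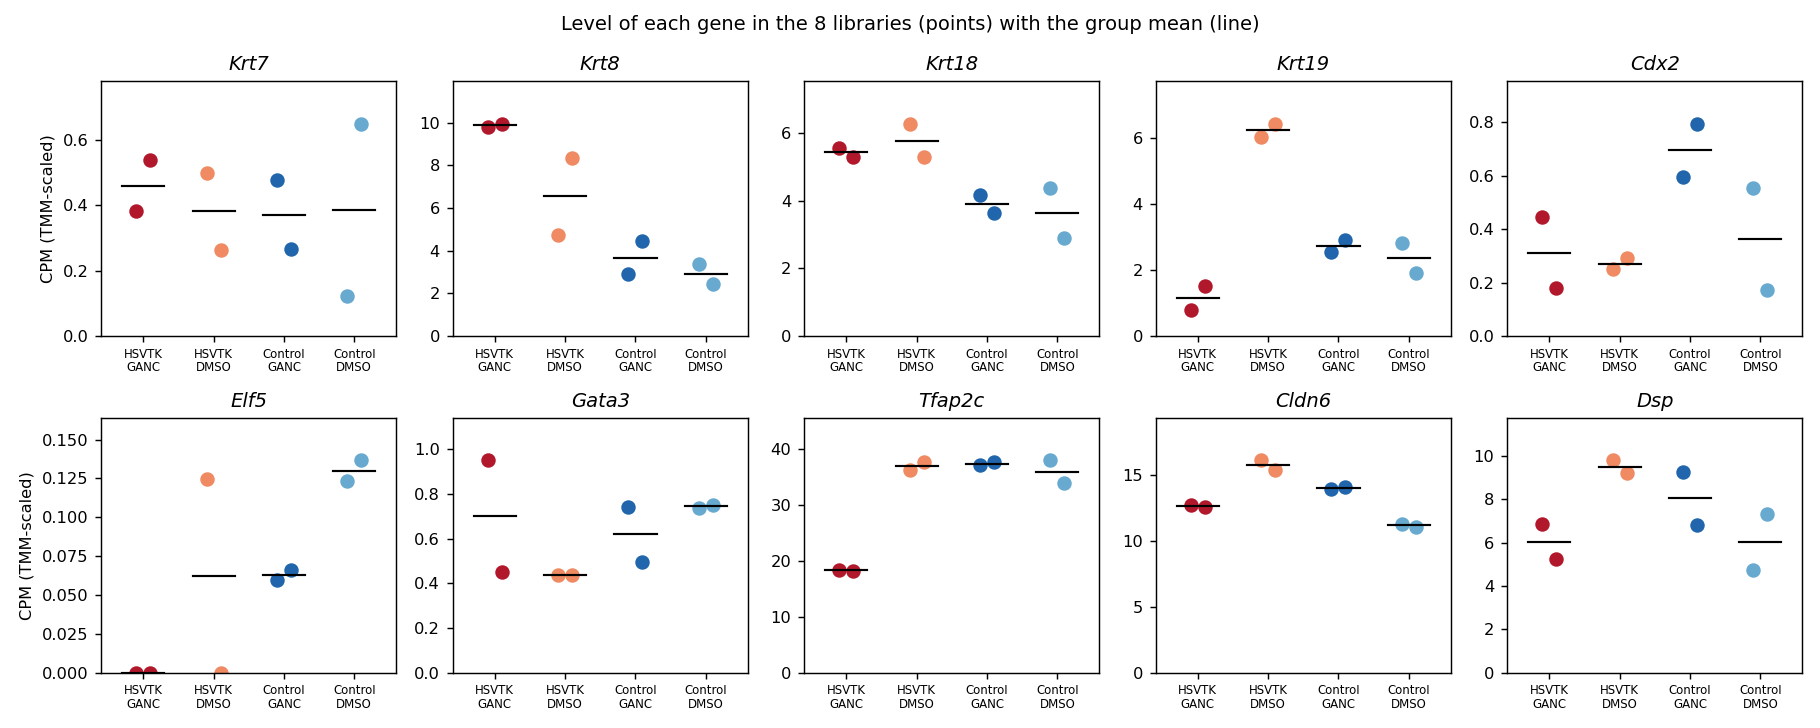
Level of each gene in CPM (vertical axes, each from 0 and on its own scale) in the 8 libraries, as points, by group with the group mean as a line. Tfap2c and Krt19 are lowest in both libraries labelled HSVTK GANC, Krt8 is highest there, and Krt7, Cdx2 and Gata3 stay below 1 CPM in every library.

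The comparison of ganciclovir with DMSO in HSVTK cells asks what the drug changed where the kinase is made. Tfap2c and Krt19 fell most, the junction genes Dsp and Cldn6 fell less, and Krt8 rose. Of the 9 members tested, 1 was called higher and 4 lower (adjusted p below 0.05), against 28.5% called over all 17976 tested genes (13.3% higher and 15.2% lower). Those shares were 2391 higher and 2728 lower genes, and 2758 and 2325 with scaling by library size alone. The median log2 fold change of the 9 members was -0.09, against 0.01 for all tested genes. The members' libraries did not overlap between the groups for 6 of 10, against 64.2% of tested genes. This count and those like it below take in Elf5, which was not tested.

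Tfap2c, the AP-2 gamma factor of trophectoderm and germ cells, had 18.4 and 18.2 CPM in the libraries labelled HSVTK GANC, against 36.3 and 37.6 CPM in those labelled HSVTK DMSO. The groups lay far apart and each pair of libraries was close. The log2 fold change was -1.01 ± 0.09 (SE; edgeR's quasi-likelihood test, adjusted p = 2.07e-09), which is 2.02-fold lower. Krt19, a type I keratin, had 0.793 and 1.52 CPM in HSVTK GANC, against 6.04 and 6.45 CPM in HSVTK DMSO. The lowest HSVTK DMSO library stood well above the highest HSVTK GANC library, although the HSVTK GANC libraries differed from each other. Its log2 fold change was -2.42 ± 0.27 (adjusted p = 6.69e-08), 5.35-fold lower. Both calls held when any 1 library was left out. Less RNA per cell and fewer cells carrying a transcript cannot be told apart in bulk samples, here or below.

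Dsp, the plaque protein of desmosomes, had 6.85 and 5.26 CPM in HSVTK GANC, against 9.81 and 9.20 CPM in HSVTK DMSO, and the groups did not overlap. Its log2 fold change was -0.65 ± 0.18 (edgeR, adjusted p = 0.00766), and the call was lost without HSVTK GANC replicate 2 (-0.48). Limma on log2(FPKM + 1) did not call Dsp here (adjusted p = 0.12). Cldn6, a claudin of early embryonic epithelia, had 12.7 and 12.5 CPM in HSVTK GANC, against 16.1 and 15.4 CPM in HSVTK DMSO. Its log2 fold change was -0.32 ± 0.11 (adjusted p = 0.0359), and leaving out any 1 of the 4 HSVTK libraries ended the call (adjusted p = 0.092 to 0.173). Krt8, a type II keratin, had 9.80 and 9.95 CPM in HSVTK GANC, against 4.74 and 8.35 CPM in HSVTK DMSO. Its log2 fold change was 0.59 ± 0.21 (adjusted p = 0.0319), and rested on HSVTK DMSO replicate 1, without which it was 0.23 (adjusted p = 0.53). Without HSVTK GANC replicate 1 or 2 the Krt8 call was lost too (adjusted p = 0.117 and 0.142), and DESeq2 called neither Krt8 (adjusted p = 0.0783) nor Cldn6 (adjusted p = 0.0573).

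Krt18, the usual type I partner of Krt8, had 5.58 and 5.29 CPM in HSVTK GANC, against 6.29 and 5.29 CPM in HSVTK DMSO. The log2 fold change was -0.09, with a 95% interval of -0.48 to 0.30. Gata3, a zinc finger factor of trophectoderm, gave 0.67 ± 0.54 (adjusted p = 0.393), with 0.951 and 0.448 CPM in HSVTK GANC against 0.436 and 0.438 CPM in HSVTK DMSO. Cdx2, the caudal factor that marks trophectoderm, gave 0.19, with an interval of -1.32 to 1.70, and Krt7 gave 0.28, with an interval of -1.18 to 1.74. For Cdx2 and Krt7 a change of 2-fold either way lies within the interval. Elf5, an ETS factor that keeps the trophoblast stem cell state, had 0 and 0 counts in HSVTK GANC and 4 and 0 in HSVTK DMSO. A count of 0 over the group allows up to 0.0462 CPM (3 counts) in HSVTK GANC, and the pooled level in HSVTK DMSO was 0.0603 CPM with an exact 95% Poisson interval of 0.0164 to 0.154. These limits cover counting error only. A difference in Elf5 was not detectable at this depth (edgeR without the low-count filter, adjusted p = 0.472).

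The comparison of ganciclovir with DMSO in Control cells measures the same drug step in cells not labelled HSVTK. None of the 9 members was called by edgeR's quasi-likelihood test, against 8.08% called over all tested genes (4.73% higher and 3.35% lower), and 0 were called by DESeq2 and by limma. At an unadjusted p below 0.05 there were 2, Cldn6 and Dsp, named here after their values were seen, against 21.6% of all tested genes. The members' median log2 fold change was 0.20, against 0.00 for all tested genes. Libraries did not overlap for 3 of 10 members, with the untested Elf5 among the 3, against 49.5% of tested genes.

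Cldn6 had 13.9 and 14.1 CPM in Control GANC, against 11.3 and 11.04 CPM in Control DMSO. The groups were apart, but the log2 fold change of 0.32 ± 0.12 had an adjusted p of 0.086. Dsp had 9.28 and 6.83 CPM in Control GANC, against 4.74 and 7.35 CPM in Control DMSO. Its groups overlapped, and its log2 fold change of 0.42 ± 0.19 had an adjusted p of 0.173, which passed the threshold without Control DMSO replicate 2 (0.78, adjusted p = 0.0385). Tfap2c had 37.1 and 37.6 CPM in Control GANC, against 38.0 and 33.8 CPM in Control DMSO, a log2 fold change of 0.06 with an interval of -0.12 to 0.24. Krt19 had 2.56 and 2.92 CPM in Control GANC, against 2.83 and 1.91 CPM in Control DMSO, a log2 fold change of 0.20 with an interval of -0.33 to 0.73. For Tfap2c this interval leaves no room for a drop of the size seen in HSVTK cells. Cdx2 had 0.595 and 0.796 CPM in Control GANC, against 0.554 and 0.171 CPM in Control DMSO, and its interval of -0.46 to 2.28 spans no change.

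The difference of the drug responses, HSVTK minus Control, sets both comparisons against each other, and they share no library. It was called lower for 4 members, Krt19, Tfap2c, Dsp and Cldn6, and higher for 0, against 25.6% called over all tested genes (14% lower and 11.6% higher). The difference on the log2 scale was -2.62 ± 0.37 for Krt19 (adjusted p = 5.39e-06) and -1.07 ± 0.13 for Tfap2c (adjusted p = 3.03e-07). It was -1.08 ± 0.26 for Dsp (adjusted p = 0.00273) and -0.64 ± 0.16 for Cldn6 (adjusted p = 0.00404). All 4 calls of edgeR's quasi-likelihood test held without any 1 library, and that of Dsp was lost in limma on log2(FPKM + 1) (adjusted p = 0.0858). The junction genes thus had fold changes below 0 in HSVTK cells and above 0 in Control cells, the second of which did not pass the test. For Krt8, whose rise was called in HSVTK cells, the difference was 0.26 with an interval of -0.40 to 0.92, so a drug response of its own in HSVTK cells was not shown.

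**Figure D2:**
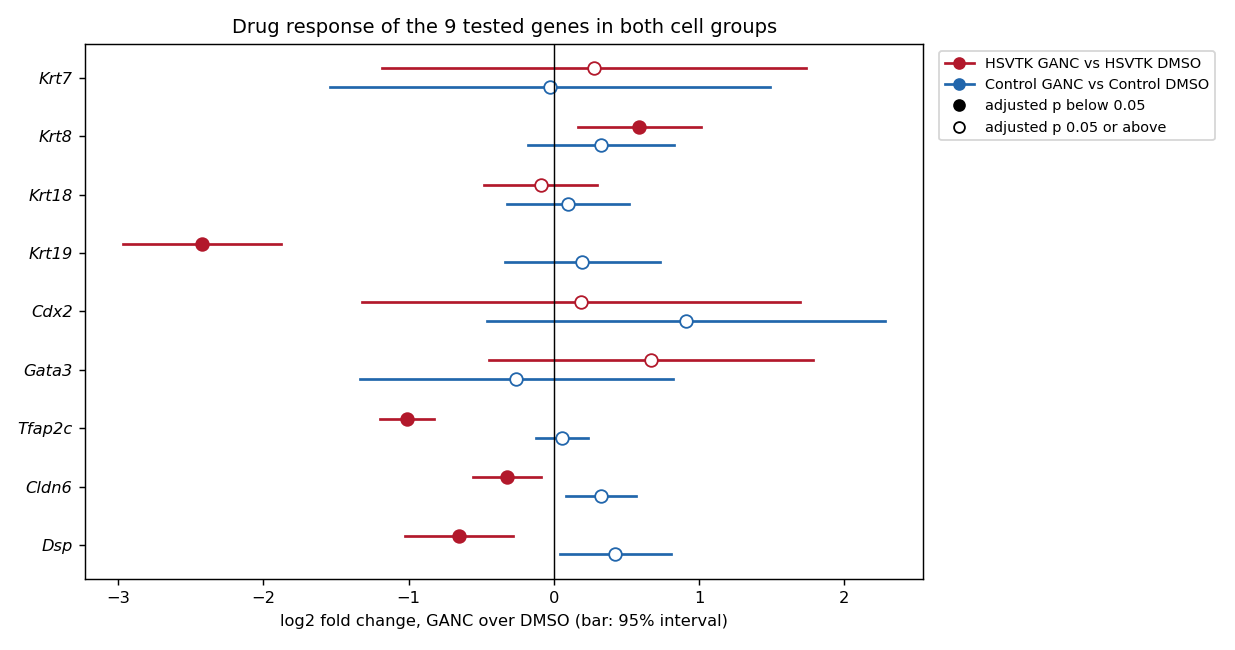
Log2 fold change of GANC over DMSO (horizontal axis) for the 9 tested genes in HSVTK cells (red) and Control cells (blue), with 95% intervals as bars and filled points where adjusted p is below 0.05. Krt19, Tfap2c, Dsp and Cldn6 lie left of 0 in HSVTK cells and not in Control cells, while Krt7, Cdx2 and Gata3 have the widest bars.

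The comparison of HSVTK with Control cells under DMSO shows how far the cell groups differed without the drug. All 3 measurable keratins and both junction genes were higher in HSVTK DMSO, and Tfap2c was not. The counts were 5 higher and 0 lower of 9, against 33.7% called over all tested genes (16.4% higher and 17.3% lower), with a member median of 0.50 against 0.00. Those shares were 2957 higher and 3103 lower genes, and 3233 and 2818 with scaling by library size alone. Libraries did not overlap for 6 of 10 members, against 67.3% of tested genes. This comparison shares its libraries with both drug comparisons, so a high value in HSVTK DMSO raises this difference and lowers the drug response in HSVTK cells.

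Krt19 was 2.62-fold higher in HSVTK DMSO (log2 1.39 ± 0.24, adjusted p = 4.81e-05), with 6.04 and 6.45 CPM against 2.83 and 1.91 CPM in Control DMSO. Krt8 was 2.26-fold higher (1.18 ± 0.23, adjusted p = 1.96e-04), with 4.74 and 8.35 CPM in HSVTK DMSO against 3.35 and 2.43 CPM in Control DMSO. Neither gene overlapped between the groups. Krt18 was higher by 0.66 ± 0.20 on the log2 scale (adjusted p = 0.0097), with 6.29 and 5.29 CPM in HSVTK DMSO against 4.37 and 2.91 CPM in Control DMSO. The Krt18 call was lost without Control DMSO replicate 2 (adjusted p = 0.2) or HSVTK DMSO replicate 1 (adjusted p = 0.108). Dsp was higher by 0.66 ± 0.18 (edgeR, adjusted p = 0.00587), a call lost without Control DMSO replicate 1 (0.37). Limma on log2(FPKM + 1) did not call Dsp in this comparison (adjusted p = 0.082). Cldn6 was higher by 0.50 ± 0.12 (adjusted p = 0.00125), with 16.1 and 15.4 CPM in HSVTK DMSO against 11.3 and 11.04 CPM in Control DMSO. Tfap2c gave 0.04, with an interval of -0.14 to 0.22, so its level under DMSO was close in both cell groups.

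Under ganciclovir, Krt8 was higher and Krt19 and Tfap2c were lower in HSVTK than in Control cells, in a comparison that again shares its libraries with both drug comparisons. The counts were 1 higher and 2 lower of 9, against 26.1% called over all tested genes, 11.1% higher and 14.9% lower (2004 and 2681 genes; 2579 and 2190 with scaling by library size alone). The member median was -0.15 against 0.01. Libraries did not overlap for 7 of 10 members, with the untested Elf5 among the 7, against 59.6% of tested genes. Krt8 had 9.80 and 9.95 CPM in HSVTK GANC, against 2.88 and 4.44 CPM in Control GANC, a log2 fold change of 1.44 ± 0.22 (adjusted p = 1.17e-05) or 2.71-fold. Tfap2c had a log2 fold change of -1.03 ± 0.09 (adjusted p = 9.68e-10), with both HSVTK GANC libraries below both Control GANC libraries. Krt19 had a log2 fold change of -1.23 ± 0.28 (adjusted p = 0.00155), which left the threshold by a narrow margin without HSVTK GANC replicate 1 (-0.85, adjusted p = 0.0502). Krt18 (0.47, adjusted p = 0.0765), Dsp (-0.42, adjusted p = 0.0992) and Cldn6 (-0.15, adjusted p = 0.382) were not called. Dsp was called without Control GANC replicate 2 (-0.62, adjusted p = 0.0217).

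Because keratins work as pairs, their summed FPKM was compared within each library. Type II over type I, as Krt7 plus Krt8 over Krt18 plus Krt19, was 1.17 and 1.15 in HSVTK GANC, 0.326 and 0.601 in HSVTK DMSO, 0.360 and 0.561 in Control GANC, and 0.379 and 0.436 in Control DMSO. Both libraries labelled HSVTK GANC stood above 1 and the other 6 at or below 0.601. The mean was 1.16 ± 0.0195 in HSVTK GANC and 0.464 ± 0.195 in HSVTK DMSO (SD, n = 2 each). The ratio is a score over members chosen with results of these libraries known, so it is given as a description with no p-value. Krt19 made up 9.91 and 18.2% of the type I sum in HSVTK GANC, 42.7 and 48.6% in HSVTK DMSO, 32.2 and 38.3% in Control GANC and 33.4 and 33.8% in Control DMSO. Both parts of the ratio differed in their means. The type II sum averaged 5.24 FPKM in HSVTK GANC and 3.40 in HSVTK DMSO, and the type I sum 4.52 and 7.41 FPKM in those groups. The HSVTK DMSO libraries had type II sums of 2.49 and 4.31 FPKM. That sum is mostly Krt8, whose rise rested on HSVTK DMSO replicate 1. These are sums of transcripts over the 4 members only. The type I genes Krt42 and Krt17, left out of them, averaged 29.4 and 21.2 FPKM over the 8 libraries. The type II genes Krt79 and Krt77, also left out, averaged 0.0985 and 0.0885 FPKM. The ratio therefore does not give the balance of all type II and type I keratins, and its place above or below 1 holds for the 4 members alone.

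**Figure D3:**
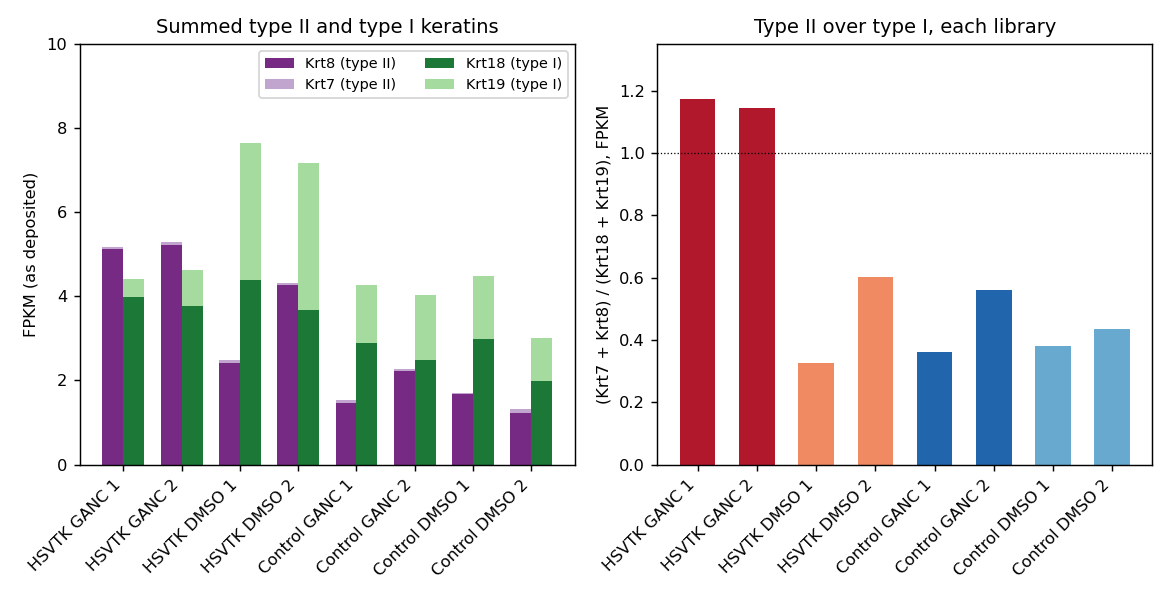
Left, FPKM of the 4 member keratins in each library, with the type II genes stacked in the purple bar and the type I genes in the green bar; right, the type II sum over the type I sum, with a dotted line at 1. The ratio is 1.17 and 1.15 in the libraries labelled HSVTK GANC and at most 0.601 elsewhere, and the pale green Krt19 part is smallest in those 2 libraries.

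The member keratins were a minor part of the keratin transcripts. Of 54 keratin genes in the table, 13 were tested, and 12 others had 0 counts in all libraries. Krt42 averaged 29.4 FPKM and Krt17 21.2 FPKM over the 8 libraries, and the 4 members made up 13.0 to 14.1% of all keratin FPKM in HSVTK GANC, 16.5 to 17.5% in HSVTK DMSO, 10.7 to 10.9% in Control GANC and 7.59 to 9.97% in Control DMSO. Krt42 and Krt17 belong to a cluster of similar type I genes, so their split depends on the counting of reads that match several genes, for which the labels name no setting. Of the 9 other keratins tested, 3 rose and 0 fell in HSVTK GANC against HSVTK DMSO, with a median log2 fold change of 0.33. That share is near the 28.5% called over all tested genes. Krt17 rose by 0.33 ± 0.09 on the log2 scale (edgeR, adjusted p = 0.00883) and Krt13 by 1.25 ± 0.38 (adjusted p = 0.0148). Both calls were lost when either replicate 1 of HSVTK DMSO or replicate 2 of HSVTK GANC was left out. The remaining call, Krt28 (2.67 ± 0.88, adjusted p = 0.0234), had a mean of 0.336 CPM and is named after its values were seen. In Control GANC against Control DMSO 0 of these 9 were called by edgeR, against 8.08% of all tested genes.

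Other trophoblast factors give the setting of Tfap2c and Cdx2. Of 15 tested members of that list of 16 genes, 1 rose and 5 fell in HSVTK GANC against HSVTK DMSO, against 13.3% higher and 15.2% lower over all tested genes, with a median log2 fold change of -0.14. Fgfr2, the receptor through which FGF4 sustains trophoblast stem cells, averaged 4.20 ± 0.066 CPM in HSVTK GANC and 9.12 ± 1.18 CPM in HSVTK DMSO (log2 -1.12 ± 0.14, adjusted p = 8.47e-07). Cdh3, the placental cadherin, averaged 12.0 ± 0.260 CPM in HSVTK GANC and 19.6 ± 0.363 CPM in HSVTK DMSO (-0.70 ± 0.11, adjusted p = 1.93e-05). Sox21, a factor tied to early lineage choice, fell by 1.15 ± 0.19 on the log2 scale (adjusted p = 3.46e-05). Eomes, the T-box partner of Cdx2, named here after its values were seen, averaged 3.85 ± 0.0297 CPM in HSVTK GANC and 7.13 ± 0.122 CPM in HSVTK DMSO (-0.89 ± 0.17, adjusted p = 0.00028). Hand1, named in the same way, had a fold change in the other direction that was not called (1.24 ± 0.78, edgeR, adjusted p = 0.256). Its mean was below 1 CPM in every group. In HSVTK GANC against Control GANC Hand1 was called higher (2.57 ± 0.89, edgeR, adjusted p = 0.0329). In Control cells the same list had 1 higher and 1 lower, Cdh3 (0.44 ± 0.11, adjusted p = 0.013) and Id2 (-0.71 ± 0.10, adjusted p = 4.3e-05), with a median of 0.01, where 4.73% of all tested genes were higher and 3.35% lower. The Cdh3 call was lost there when either replicate 1 of Control DMSO or replicate 1 of Control GANC was left out. The difference of responses was called for 1 higher and 5 lower genes, against 11.6% higher and 14% lower over all tested genes, among them Cdh3 at -1.14 ± 0.16 (adjusted p = 3.13e-06).

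Between the cell groups, the list had 2 higher and 7 lower in HSVTK DMSO against Control DMSO, with a median of -0.26, and 1 higher and 9 lower in HSVTK GANC against Control GANC, with a median of -0.58. Over all tested genes 16.4% were higher and 17.3% lower under DMSO, and 11.1% higher and 14.9% lower under ganciclovir. The median of the whole list was below 0 in both, while Tfap2c was called lower under ganciclovir and not under DMSO. Id2, an inhibitor of helix-loop-helix factors, averaged 11.8 ± 0.710 CPM in HSVTK DMSO and 43.7 ± 0.588 CPM in Control DMSO (log2 -1.89 ± 0.10, adjusted p = 3.26e-14). The homeobox genes Rhox6 and Rhox9, which are placental and germ line genes of the X chromosome, were 6.86-fold and 6.77-fold lower in HSVTK DMSO in that comparison, at 0.662 and 0.631 CPM, against 4.56 and 4.30 CPM in Control DMSO. Markers of differentiated trophoblast were nearly absent: of 11, 6 had 0 counts in all libraries (Prl3d1, Prl3b1, Prl2c2, Tpbpa, Synb and Ctsq) and 3 were tested. Their summed level was 1.73 to 1.81 CPM in HSVTK GANC, 2.74 to 2.89 in HSVTK DMSO, 1.79 to 2.65 in Control GANC and 0.923 to 1.68 in Control DMSO.

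Other tight junction genes were called lower more often than higher in HSVTK cells under ganciclovir. Of 20 tested, 2 rose and 9 fell in HSVTK GANC against HSVTK DMSO, with a median log2 fold change of -0.37 against 0.01 for all tested genes, of which 13.3% were called higher and 15.2% lower. Cgn, the plaque protein cingulin, averaged 12.9 ± 0.775 CPM in HSVTK GANC and 24.9 ± 0.347 CPM in HSVTK DMSO (-0.95 ± 0.11, adjusted p = 1.22e-07). Amotl2, an angiomotin that binds junctions and YAP, fell by 0.65 ± 0.09 on the log2 scale (adjusted p = 1.45e-06), and the polarity kinase Prkcz fell by 0.62 ± 0.10 (adjusted p = 4.63e-05). In Control GANC against Control DMSO 4 rose and 0 fell, with a median of 0.18, against 4.73% higher and 3.35% lower over all tested genes. Among them Tjp1, the scaffold ZO-1, rose by 0.34 ± 0.08 (adjusted p = 0.00547), Cldn7 was 2.64-fold higher (adjusted p = 0.00488) and Cgn rose by 0.46 ± 0.11 (adjusted p = 0.0072). All 3 were lost without Control DMSO replicate 1 (the Cldn7 adjusted p was then 0.0567), and Cgn also without Control GANC replicate 2. The difference of responses was called for 1 higher and 9 lower of the 20, against 11.6% and 14% of all tested genes, with Cgn at -1.42 ± 0.15 (adjusted p = 6.59e-08), Cldn7 at -2.73 ± 0.41 (adjusted p = 1.2e-05) and Tjp1 at -0.66 ± 0.11 (adjusted p = 2.97e-05). In HSVTK DMSO against Control DMSO 7 of the 20 were higher and 2 lower, against 16.4% and 17.3% of all tested genes. In HSVTK GANC against Control GANC 1 was higher and 7 lower, against 11.1% and 14.9%.

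Among the other desmosome genes Perp and Jup rose in HSVTK GANC against HSVTK DMSO. Of 14, 4 had fewer than 10 counts in every library (Dsc1, Dsc3, Dsg1a and Dsg3) and 9 were tested. There 2 rose and 0 fell by edgeR, with a median of 0.07, against 13.3% called higher and 15.2% lower over all tested genes, so 0 of 9 lower is near that background. Perp, a desmosomal membrane protein and p53 target, averaged 26.0 ± 3.05 CPM in HSVTK GANC and 8.37 ± 0.361 CPM in HSVTK DMSO (log2 1.64 ± 0.11, adjusted p = 7.97e-12). Jup, plakoglobin, averaged 157 ± 13.4 CPM in HSVTK GANC and 122 ± 3.70 CPM in HSVTK DMSO (0.36 ± 0.07, adjusted p = 0.000318). In HSVTK DMSO against Control DMSO, where Dsp was higher, Perp was lower by 1.72 ± 0.11 and Jup by 0.51 ± 0.07 on the log2 scale, and Pkp2, a plakophilin that binds desmoplakin, was higher by 0.66 ± 0.07 (adjusted p = 5.65e-08). In Control GANC against Control DMSO 1 rose (Pkp2, 0.40 ± 0.08, adjusted p = 0.00145) and 1 fell (Perp, -0.38 ± 0.10, adjusted p = 0.0194), where 8.08% of all tested genes were called; the Perp call was lost without any 1 of the 4 Control libraries. The difference of responses was called by edgeR for 2 higher and 3 lower of the 9, against 11.6% and 14% of all tested genes. It was 2.02 ± 0.15 for Perp (adjusted p = 6.89e-11) and -0.45 ± 0.10 for Pkp2 (adjusted p = 0.00185).

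The wider epithelial set was mixed. Of 17 tested genes of epithelial adhesion and its regulators, 5 rose and 1 fell in HSVTK GANC against HSVTK DMSO, with a median of 0.05, and 4 rose and 1 fell in Control GANC against Control DMSO, with a median of 0.10. Over all tested genes 28.5% were called in HSVTK cells, near the share of this set, and 8.08% in Control cells. Grhl2, a factor that turns on epithelial genes, averaged 28.3 ± 0.454 CPM in HSVTK GANC and 18.5 ± 2.32 CPM in HSVTK DMSO (0.61 ± 0.10, adjusted p = 3.34e-05). Esrp2, an epithelial splicing regulator, rose by 1.04 ± 0.18 (adjusted p = 4.92e-05), and the adhesion molecule Epcam fell by 0.34 ± 0.07 on the log2 scale (adjusted p = 0.000226). Cdh1, E-cadherin, rose in Control GANC against Control DMSO (0.32 ± 0.06, adjusted p = 0.00146), and its difference of responses was -0.47 ± 0.08 (adjusted p = 0.000118). Grhl2 had a difference of 0.77 ± 0.14 (edgeR, adjusted p = 0.000136). The difference was called for 3 higher and 2 lower of the 17, against 11.6% and 14% of all tested genes. Of 8 tested mesenchymal genes, 1 rose and 2 fell in HSVTK GANC against HSVTK DMSO, and 1 rose and 1 fell in Control cells, against the same 28.5% and 8.08%.

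**Figure D4:**
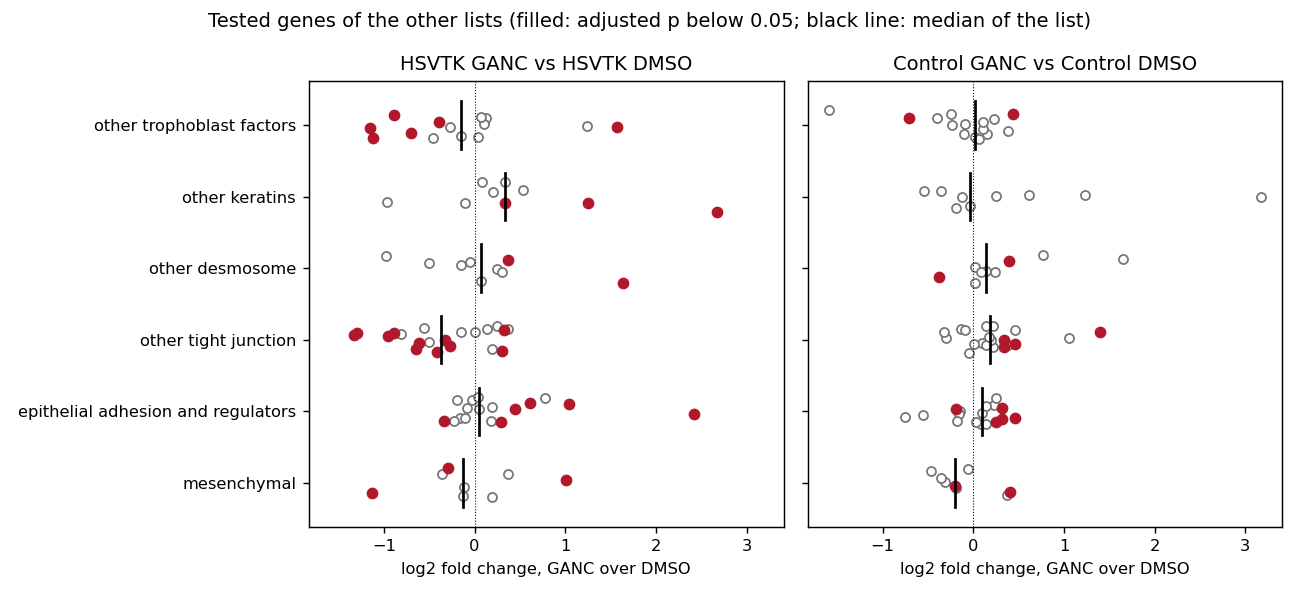
Log2 fold change of GANC over DMSO (horizontal axes) for the tested genes of 6 other lists in HSVTK cells (left) and Control cells (right), with filled points where adjusted p is below 0.05 and a black line at each list's median. In HSVTK cells the tight junction median is -0.37 and the filled points of that list lie mostly left of 0, whereas in Control cells its median is 0.18.

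Markers of other cell types that the cultures could hold were measured beside these genes. Summed 2C-like markers reached 26.5 to 29.9 CPM in HSVTK GANC, against 15.3 to 16.1 in HSVTK DMSO, 11.1 to 13.8 in Control GANC and 12.4 to 14.1 in Control DMSO. Of 5 tested, 3 were called higher in HSVTK GANC against HSVTK DMSO, where 13.3% of all tested genes were. The 3 are Zscan4c, Zscan4d and Zscan4f, near-identical copies that do not count as 3 separate markers. Zfp352 was not called there (edgeR, adjusted p = 0.0985). Surface ectoderm markers summed to 71.6 to 73.3 CPM in HSVTK GANC, 48.7 to 51.9 in HSVTK DMSO, 54.2 to 62.3 in Control GANC and 50.7 to 58.6 in Control DMSO, with Sfn and Krt17 called higher of 3 tested; Trp63 had fewer than 10 counts in every library. Primitive streak markers summed to 9.48 to 9.51 CPM in HSVTK GANC, 6.75 to 6.98 in HSVTK DMSO, 3.93 to 5.70 in Control GANC and 4.31 to 4.74 in Control DMSO, with 1 of 6 called higher in the drug comparison of each cell group. Endoderm markers summed to 12.3 to 12.7 CPM in HSVTK GANC, 12.2 to 13.8 in HSVTK DMSO, 6.60 to 7.88 in Control GANC and 8.82 to 9.14 in Control DMSO, with 1 of 10 called higher in HSVTK GANC against HSVTK DMSO and Ttr at 0 in all libraries. Fibroblast and feeder markers summed to 20.4 to 21.1 CPM in HSVTK GANC, 21.1 to 24.2 in HSVTK DMSO, 14.9 to 17.2 in Control GANC and 10.2 to 11.5 in Control DMSO, and Col3a1, Dcn, Lum and Postn had fewer than 10 counts in every library. Of 6 tested embryonic stem cell markers, 0 were higher and 3 lower in HSVTK GANC against HSVTK DMSO. Over all tested genes 15.2% were called lower there. These markers summed to 3184 to 3234 CPM in HSVTK GANC and 3390 to 3425 CPM in HSVTK DMSO. The surface ectoderm, streak and endoderm counts stand against 13.3% called higher over all tested genes in HSVTK cells and 4.73% in Control cells. The part of these cell types in the changes of Krt8, Krt19, Tfap2c, Cldn6 and Dsp was not tested.

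Elf5 lies in a stretch of chromosome 2, between Dnajc10 and Sord in the GRCm38 gene order. The stretch was chosen with earlier results of these data known, so its counts are a description and no test. Its 217 genes with a mean of at least 1 CPM had a median log2 fold change of -0.57 in HSVTK DMSO against Control DMSO. Of these genes 6 were called higher and 157 lower, against 17.3% lower over all tested genes. In HSVTK GANC against Control GANC the median was -0.52, with 4 higher and 157 lower, against 14.9% lower over all tested genes. In HSVTK GANC against HSVTK DMSO it was 0.01, with 42 higher and 37 lower, against 13.3% and 15.2% over all tested genes. These shares over all tested genes also take in genes with a mean below 1 CPM. Elf5 counts were 0 and 0 in HSVTK GANC, 4 and 0 in HSVTK DMSO, 2 and 2 in Control GANC and 4 and 4 in Control DMSO, too few to tell whether it shares that shift. Ehf, the ETS gene next to Elf5, rose by 2.42 ± 0.53 on the log2 scale in HSVTK GANC against HSVTK DMSO (adjusted p = 0.00089), at a mean of 0.783 CPM, and is named after its values were seen. Genes that overlap Krt7, Krt8, Gata3 and Dsp had 0 to 2 counts per library and shared up to 499 exon bases with a member (Dsp). The effect of these shared bases on the members' counts was not tested, and the strand setting is not given.

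Across the 8 libraries, the members fell into no single pattern. The highest correlations of log2 CPM between members were 0.78 for Krt19 with Tfap2c, 0.74 for Cldn6 with Dsp and 0.72 for Krt8 with Krt18, and the lowest was -0.70 for Krt8 with Tfap2c. These describe 8 libraries in 4 groups that share their depth and group differences, and carry no test. Among genes with a mean of at least 1 CPM, the closest in pattern to Krt19 was Aqp11 (Pearson r = 0.99), to Tfap2c Prrc1 (0.99), to Krt8 Fgf4 (0.98), to Krt18 Tmem135 (0.998), to Cldn6 Fgf11 (0.997) and to Dsp Ralgapa2 (0.96).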

How the data were processed

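RNA was measured by sequencing in 8 libraries, 2 in each of 4 groups read from the sample titles. The authors deposited raw counts per gene (29704460 to 34184475 per library) and FPKM values. GRCm39 is the genome build listed in the submitters' processing notes, beside the tools HISAT2 2.1.0, featureCounts 2.0.1 and fastp 0.23.2, and also DESeq2 1.40.2. Not given in the sources used here are the annotation release, the strand setting and how reads matching several genes were counted. Per the labels, 1 ug of total RNA went into each library.

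The deposited counts were fitted with edgeR 4.0.16 (R 4.3.3) in 1 model of the 4 groups with TMM scaling, after a filter (filterByExpr, minimum count 10) that left 17976 of 57010 genes. The quasi-likelihood test gave p-values, Benjamini-Hochberg adjusted over all tested genes, with a threshold of 0.05. Standard errors are the log2 fold change over the square root of F and are too small for genes of few counts; intervals are 95% intervals of the fit. The model has 4 residual degrees of freedom and a biological coefficient of variation of 6.31%. Levels in CPM were computed from the counts; levels of different genes were compared only in the deposited FPKM, a unit scaled by gene length and depth. Limits for 0 counts use 3 counts per group and cover counting error only. The 2 libraries of each group differed by more than counting noise (chi-square per degree of freedom 3.58 to 8.39), so all were kept.

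Alternatives were other scalings, no filter, DESeq2 1.42.0, limma 3.58.1 on log2(FPKM + 1) and with a pseudocount of 0.1, only the compared libraries, a replicate block, a test against a 1.5-fold change, and leaving out each library. Those for genes outside the 10 were added after seeing the data. The fit was tested on simulated data. The 10 genes, the 13 lists beside them and the chromosome 2 stretch around Elf5 were chosen with earlier results of these data known. Of each list, at most 3 called genes per comparison with the lowest adjusted p and a mean of at least 1 CPM were named, and for each member the genes of closest pattern. Promoters came from a GRCm38.p6 table, and gene order from a GRCm38 annotation; tables were handled with pandas 2.3.3 and figures drawn with matplotlib 3.10.9.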

Additional observations from a re-analysis of the deposited data

Results flagged for a closer look

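Drug responses that differed between HSVTK and Control cells were found for 4 of the 9 tested members, by the interaction term of edgeR's quasi-likelihood test. The response in HSVTK cells minus that in Control cells was -2.62 on the log2 scale for Krt19 (adjusted p = 5.39e-06). It was -1.07 for Tfap2c (adjusted p = 3.03e-07), -1.08 for Dsp (adjusted p = 0.00273) and -0.64 for Cldn6 (adjusted p = 0.00404). For each gene both HSVTK GANC libraries lay below both HSVTK DMSO libraries, a drop that is itself part of the difference. Libraries of these groups did not overlap, in either direction, for 64.2% of all tested genes. Over all tested genes 25.6% passed the test of the difference. With 2 libraries a group, single libraries that stand apart could not be looked for within groups.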

How the results depend on the processing

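Of the 17 calls of members, 10 were kept and 7 lost under at least 1 alternative, leaving aside the test against a 1.5-fold change and the unfiltered fits, and none changed sign. In HSVTK GANC against HSVTK DMSO, 3 members were called by DESeq2 and 3 by limma (log2 of FPKM plus 1 or plus 0.1, and plus 1 without a filter). Both called Krt19 and Tfap2c, but DESeq2 added Dsp and not Cldn6, and limma added Cldn6 and not Dsp. The test against a 1.5-fold change called 2 there, 2 for the difference of responses and 2 in HSVTK DMSO against Control DMSO. In the last of these limma without a filter also called 2. Without 1 library, the members called numbered 2 to 5 in HSVTK GANC against HSVTK DMSO, 0 to 1 in Control GANC against Control DMSO, 4 for the difference, 4 to 5 in HSVTK DMSO against Control DMSO and 2 to 4 in HSVTK GANC against Control GANC. All genes called, in that order, ranged over 3313 to 5627, 433 to 2010, 3415 to 4638, 4399 to 6560 and 2999 to 4497. Limma without a filter called 2615, 29, 1981, 3652 and 2288 genes, and the 1.5-fold test 486, 6, 815, 1080 and 589; in Control cells limma called 190 and, with 0.1, 251, and a fit of the compared libraries alone 942. The cause was not tested.

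Same-numbered libraries did not deviate together (r = -0.0319 to 0.0145), so the numbers do not pair them; a replicate block called 4932, 1339, 4433, 5882 and 4517 genes and 5, 0, 4, 5 and 3 members. Uncalled fold changes changed sign as follows. Krt7 gave 0.0287 (block) and 0.018 (limma, 0.1) in Control GANC against Control DMSO. In HSVTK DMSO against Control DMSO it gave 0.0202 (library size scaling), 0.0514 (block), 0.000866 (limma, with and without a filter) and 0.0351 (limma, 0.1). Without 1 library, HSVTK GANC against HSVTK DMSO ranged from -0.12 to 0.79 for Krt7, -0.22 to 0.028 for Krt18 and -0.59 to 0.69 for Cdx2. Control GANC against Control DMSO ranged from -0.79 to 1.58 for Krt7, -0.0092 to 0.63 for Krt8, -0.15 to 0.43 for Krt18, -0.041 to 0.52 for Krt19 and -0.014 to 0.15 for Tfap2c. The difference of responses ranged from -1.31 to 1.06 for Krt7, -0.11 to 0.72 for Krt8 and -0.53 to 0.051 for Krt18. HSVTK DMSO against Control DMSO ranged from -0.77 to 1.599 for Krt7, -1.02 to 0.65 for Cdx2 and -0.033 to 0.13 for Tfap2c, and HSVTK GANC against Control GANC from -0.053 to 0.77 for Krt7 and -0.48 to 0.60 for Gata3. The few counts of Krt7, Cdx2, Gata3 and Elf5 limit what can be said of them.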
